A study of Arabidopsis thaliana with 12 samples.

Results

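Transcripts of the Arabidopsis mitochondrial genome were read from 12 probe sets of the ATH1 array, 1 for each of 12 genes, out of 22746 probe sets that were not controls. A probe set is the group of short probes that measures 1 transcript. Members were the probe sets in the lowest range of the array's numbering that the platform's probe table assigned to a single mitochondrial gene by its symbol (nad, cox, cob, ccb, mat-r or orf) or locus. Of the 12, 11 had the spelling of that rule and matR, written without the hyphen, was counted with them. No locus beginning ATMG occurred in the probe table, and all 12 symbols matched a gene of the mitochondrial genome in the RefSeq gene table, which lists 32 protein-coding genes there. The member with the highest number was nad6, and the next mitochondrial probe set, beyond the range, was 1 of nad1. The rule used no measured value.

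The study addressed how ROP10, a small GTPase of plants, acts in the response to abscisic acid (ABA), a stress hormone. Seedlings of rop10-1, a mutant of ROP10, and of the wild type Ws grew for 7 days in shaken liquid MS medium with sucrose and were then kept for 4 h with ABA at 1 µM or with its solvent DMSO (mock). The 4 groups were rop10-1 with ABA, rop10-1 mock, Ws with ABA and Ws mock, each with 3 arrays of whole-seedling RNA described as biological replicates and numbered 1 to 3 in their titles. The labels do not say what a number stands for or what kind of mutation rop10-1 carries. No probe set was assigned to ROP10 in the probe table, so the mutated gene was not checked.

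Plant mitochondria keep a small genome that encodes part of the respiratory chain, part of the machinery that matures c-type cytochromes, ribosomal proteins and RNAs. Nuclear genes supply the remaining subunits and nearly all proteins that transcribe, splice, edit and degrade the mitochondrial RNAs. Mitochondrial messages are in general not stably polyadenylated as nuclear messages are, since a poly(A) tail in plant mitochondria promotes decay.

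Complex I, the NADH dehydrogenase that passes electrons from NADH to ubiquinone, was represented by 5 subunit genes, nad4, nad4L, nad6, nad7 and nad9. Cytochrome c maturation, which attaches haem to c-type cytochromes, was represented by 4 genes under older names, ccb382 (ccmFN1 in RefSeq), ccb203 (ccmFN2), ccb206 (ccmB) and ccb452 (ccmFC). The remaining members were cox2, a core subunit of cytochrome c oxidase, matR, the intron-encoded maturase, and orfX (mttB in RefSeq), a membrane protein related to the TatC subunit of bacterial twin-arginine transport. In the RefSeq order of coding genes ccb452, nad4 and orfX stand next to each other, as do cox2 and ccb206. The probe sets of matR, orfX, ccb452 and nad6 carry the suffix for probes shared with other sequences, and the nuclear genome of the Columbia reference holds a large copy of mitochondrial DNA on chromosome 2, so nuclear and mitochondrial origin of signal at shared probes cannot be told apart.

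Values are signal, the deposited intensity on a linear scale. The trimmed mean was between 500.04 and 500.048 and the median signal between 180.05 and 203.15 on the 12 arrays. Light-harvesting genes of the shoot and expansins of root hairs were both present, with signal from 11081.6 to 14595 for LHCB4.1 and from 93.4 to 177.2 for EXPA7. Neither these nor LHCB4.2 and EXPA18 were called for ABA or genotype. The samples are bulk tissue, in which fewer cells of a type and less RNA per cell cannot be told apart.

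The tests used limma on log2(signal + 16) over the 15923 probe sets that remained after the 30% with the lowest mean were left out, and a call was an adjusted p under 0.05 (Benjamini-Hochberg over all of these). Of the 12 members, 5 passed that filter, which lay at a signal of 67.1: ccb382, nad4, ccb452, orfX and ccb206. The filter used the mean over all 12 arrays and no group label. The member just above it was ccb206, with a mean of 89.3 (back-transformed from the log2 scale), and the member just below it was nad9, with 65.5.

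**Figure D1:**
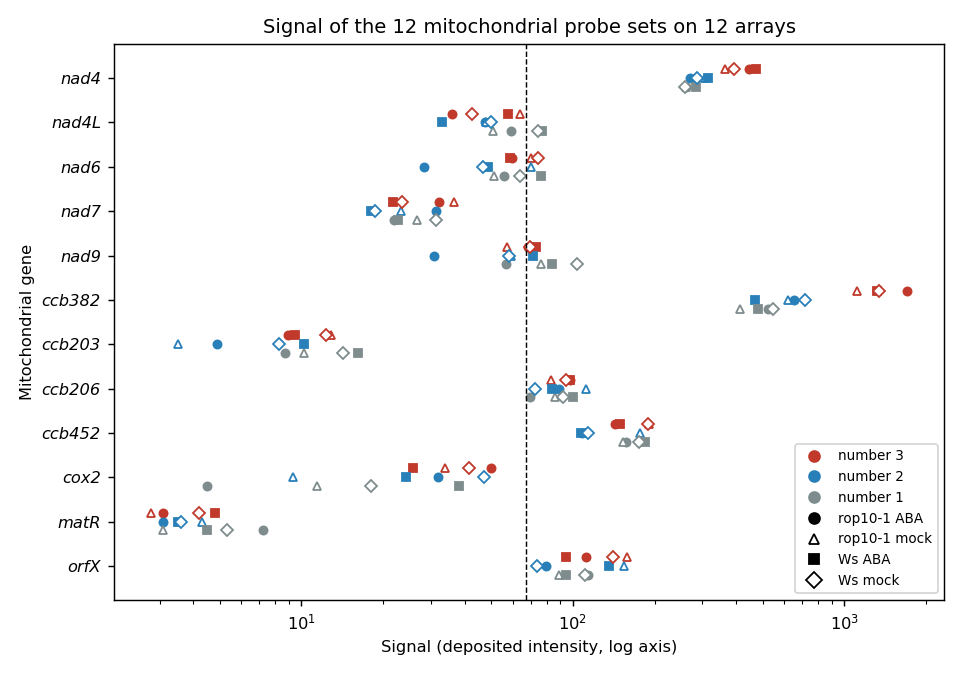
Signal (deposited intensity, log axis) of the 12 mitochondrial probe sets, 1 row per gene and 1 point per array. Colour gives the replicate number, shape the group, and filled points are ABA; the dashed line marks the filter at 67.1. The points of number 3 stand apart from the others in the rows of ccb382 and nad4. Signals of different probe sets are not comparable with each other.

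Among the members below the filter, the complex I gene nad4L had signal from 32.9 to 76.9 with a median of 50.4. The other complex I genes below it were nad6 (28.3 to 76.5, median 59.05), nad7 (18.1 to 36.6, median 23.35) and nad9 (30.9 to 103.5, median 68.95). The cytochrome c oxidase gene cox2 had signal from 4.5 to 49.9, the maturation gene ccb203 from 3.5 to 16.2, and the maturase matR from 2.8 to 7.2. These 7 probe sets are described by their values, and differences among such low signals have little weight.

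ABA treatment called no mitochondrial transcript in either genotype, in an experiment in which it called 6.54% of all tested probe sets in rop10-1 and 6.54% in Ws. The count was 0 of 5 in each genotype by limma, and at these shares 5 probe sets are too few for a 0 to set the members apart. At an unadjusted p under 0.05, in the fit without the replicate number, it was also 0 of 5. Of the 15923 tested probe sets, 3032 in rop10-1 and 3197 in Ws had such a p. With the number as a block, 1 of 5 members and 4635 of all tested probe sets had such a p in rop10-1, and 0 and 4646 in Ws. The average over both genotypes called 15.5% of all tested probe sets and 0 of 5 members. None of the 5 had an unadjusted p under 0.05, beside 4653 of all tested probe sets. The median log2 difference of the 5 members was -0.12 in rop10-1 and 0.01 in Ws, beside -0.05 and -0.04 over all tested probe sets. In none of the 5 tested members, nor in those below the filter, did the 3 ABA arrays stand clear of the 3 mock arrays. Over all tested probe sets, none of which lies below the filter, they did so in 27.9% in rop10-1 and in 21.2% in Ws. With 5 tested members the count is too small to set against these shares.

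Of the complex I genes among the members, nad4, which encodes a proton-pumping membrane subunit, was the 1 that could be tested. Its signal in rop10-1 was 446.9, 269.4 and 262.2 with ABA (numbers 3, 2 and 1), against 362.2, 307.4 and 262.2 in mock. In Ws it was 474.1, 313.9 and 283.9 with ABA, against 391.8, 287.2 and 259.9 in mock. ABA and mock overlapped in both genotypes, and the highest array of each group was number 3. The log2 difference, ABA minus mock, was 0.04 in rop10-1 (SE 0.24, adjusted p = 0.955) and 0.17 in Ws (SE 0.24, adjusted p = 0.775), by limma. Averaged over the genotypes it was 0.10 with a 95% interval from -0.27 to 0.48, which narrowed to -0.08 to 0.28 when the number entered the fit as a block (28% of all tested probe sets called, and 0 of 5 members).

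Of the cytochrome c maturation genes, ccb382, which encodes part of the haem lyase, had the largest SE of the 5 members in the fit without the block. Its signal in rop10-1 was 1698.3, 650.3 and 525.2 with ABA (numbers 3, 2 and 1), against 1118.2, 620.9 and 411.3 in mock. In Ws it was 1325, 468.5 and 482.6 with ABA, against 1344.1, 715.2 and 545.9 in mock. The groups overlapped throughout. Compared within a number, the ABA array was above the mock array in all 3 pairs of rop10-1, by 0.60, 0.07 and 0.34 on the log2 scale for numbers 3, 2 and 1. In Ws it was below the mock array in all 3 pairs, with log2 differences of -0.02, -0.59 and -0.17.

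The fitted ABA difference of ccb382 was 0.33 in rop10-1 (SE 0.53, limma adjusted p = 0.786) and -0.26 in Ws (SE 0.53, adjusted p = 0.846). When arrays were blocked by number, the SE was 0.14 and the adjusted p 0.137 in rop10-1 and 0.243 in Ws. Neither was a call, in a fit that called 15.6% of all tested probe sets in rop10-1 and 15.7% in Ws. The unadjusted p in rop10-1 was then 0.0349. The difference between the genotypes in ABA response, the interaction, was 0.60 (SE 0.74, limma adjusted p = 1.00). With the block its SE was 0.20, its unadjusted p 0.0111 and its adjusted p 0.908, with 0% of all tested probe sets called. Averaged over the genotypes, the ABA difference was 0.04 with a 95% interval from -0.77 to 0.84, or from -0.18 to 0.25 with the block.

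Signal of ccb452, a further haem lyase gene of cytochrome c maturation, in rop10-1 was 143.4, 108.5 and 156.5 with ABA (numbers 3, 2 and 1), against 190, 176.9 and 153.3 in mock. In Ws it was 149.5, 107.3 and 184.3 with ABA, against 188.6, 113.6 and 175 in mock. ABA and mock overlapped in both genotypes. Its average ABA difference of -0.21 was the lowest of the 5 members (SE 0.15, limma adjusted p = 0.398) and stayed uncalled with the block (adjusted p = 0.206).

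Signal of ccb206, the gene of a membrane subunit of the transporter of cytochrome c maturation, in rop10-1 was 97.5, 89 and 69.8 with ABA (numbers 3, 2 and 1), against 83.2, 112 and 86.3 in mock. Ws seedlings had 97.8, 83.7 and 100.1 with ABA, against 94.6, 72.7 and 92.1 in mock. The 4 groups overlapped, and the average ABA difference was -0.01 with a 95% interval from -0.26 to 0.25.

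Signal of orfX, the twin-arginine transport gene, in rop10-1 was 112.1, 79.5 and 113.5 with ABA (numbers 3, 2 and 1), against 158, 154.7 and 88.6 in mock. Ws seedlings had 94.1, 135.8 and 94 with ABA, against 141, 73.9 and 110.7 in mock. The groups overlapped and no number was the highest in all groups. Its ABA difference was -0.32 in rop10-1 (SE 0.25, limma adjusted p = 0.545), 0.01 in Ws and -0.16 on average.

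**Figure D2:**
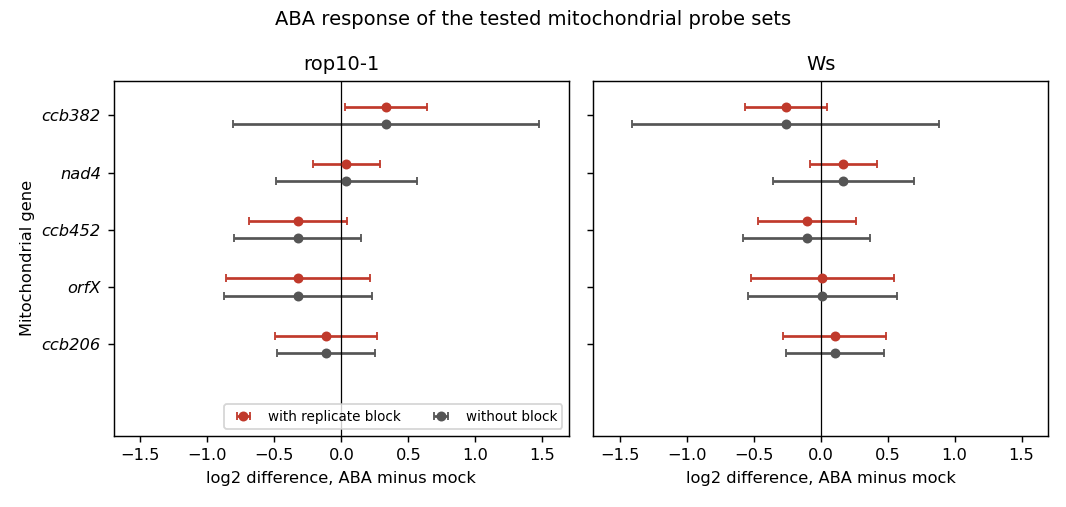
Log2 difference, ABA minus mock, of the 5 tested mitochondrial probe sets in rop10-1 (left) and Ws (right), with 95% intervals from the fit blocked by replicate number and from the fit without it. The point estimates are the same in both fits; the interval of ccb382 in rop10-1 runs from 0.03 to 0.64 with the block and from -0.81 to 1.48 without it.

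The mutation called no mitochondrial transcript, with or without the replicate block. Without the block almost no probe set of any kind was called, so a count of 0 does not set the members apart. For rop10-1 against Ws, 0 of 5 members were called under ABA, in mock and on average, by limma, where 0.0188%, 0.0314% and 0.0377% of all tested probe sets were called. At an unadjusted p under 0.05, without the replicate block, the count was also 0 of 5 in these 3 comparisons. Of the 15923 tested probe sets, 1140, 594 and 1524 had such a p. With the block, 43 of all tested probe sets were called under ABA, 7 in mock and 227 on average. The count of members called stayed at 0 of 5 in each. The interaction called 0 of 5 members and 0% of all tested probe sets. Without the block, 0 members and 301 of all tested probe sets had an unadjusted p under 0.05. With the block, 1 member, ccb382, and 803 of all tested probe sets had such a p. The median difference of the 5 members was -0.09 under ABA, 0.10 in mock and 0.01 on average, and -0.22 for the interaction. For ccb382 the difference was 0.31 under ABA (SE 0.53) and -0.29 in mock, and with the replicate block the first of these had an unadjusted p of 0.0470 and an adjusted p of 0.332, where 0.27% of all tested probe sets were called.

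Under ABA the rop10-1 and Ws arrays did not overlap in 2 of 12 members, nad9 and ccb203, both below the filter. They did not overlap in 10.9% of all tested probe sets, which lie above the filter. With 12 members the count is too small to set against this share. The complex I gene nad9 had signal of 68.1, 30.9 and 56.5 in rop10-1 (numbers 3, 2 and 1), against 72.9, 71.5 and 83.8 in Ws. The maturation gene ccb203 had 8.9, 4.9 and 8.7 in rop10-1, against 9.5, 10.2 and 16.2 in Ws. All rop10-1 arrays were below all Ws arrays in both genes, for ccb203 by a narrow margin (8.9 in rop10-1 against 9.5 in Ws). With no filter on low signal the log2 differences were -0.48 for nad9 (SE 0.24, limma adjusted p = 0.798) and -0.25 for ccb203 (SE 0.17, adjusted p = 0.886). In mock the genotypes overlapped in all 12 members, beside 9.4% of all tested probe sets that did not.

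The replicate number in the titles separated ccb382 and nad4 far more than treatment or genotype did. Of the 5 tested members, 2 were called by a moderated F-test for the number, in a fit with a mean for each group, and 20% of all tested probe sets were called by it. The adjusted p was 6.19e-05 for ccb382, which ranked 39 among 15923 probe sets, and 0.00340 for nad4, which ranked 637. For ccb452 it was 0.104, for orfX 0.604 and for ccb206 0.885. Without all Ws arrays the count was 1, ccb382.

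Signal of ccb382 averaged 1371 ± 241 on the arrays numbered 3, 614 ± 105 on those numbered 2 and 491 ± 59.5 on those numbered 1 (SD, n = 4 each). For nad4 the means were 419 ± 50.9 for number 3, 294 ± 20.2 for number 2 and 267 ± 11.3 for number 1. In both genes all 4 arrays of number 3 lay above the 8 others. The mean of number 3 was 2.79 times that of number 1 and 2.23 times that of number 2 for ccb382, and 1.57 and 1.42 times for nad4. The other 10 members, 7 of them below the filter, overlapped between numbers 3 and 1 and between numbers 3 and 2. Of all tested probe sets, 4.6% were higher without overlap in number 3 than in number 1 and 2.44% higher than in number 2.

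**Figure D3:**
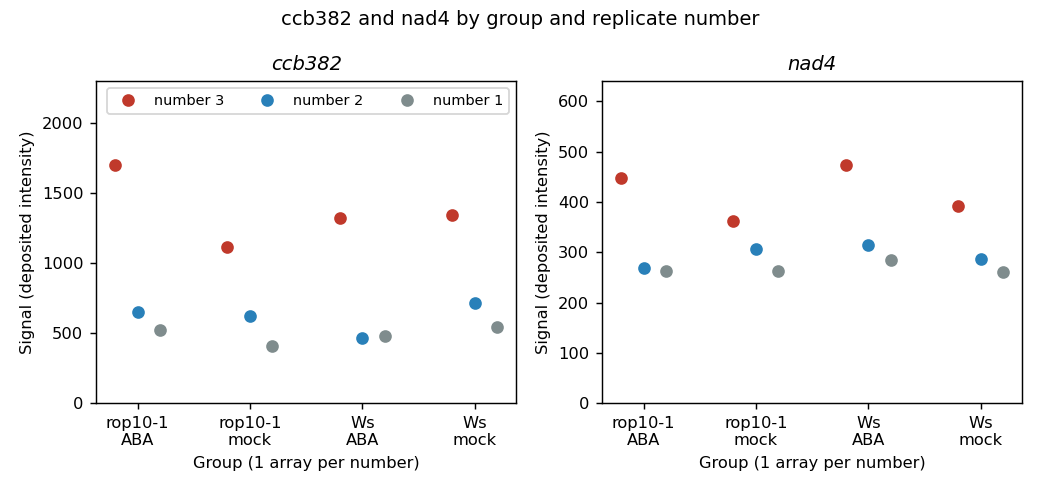
Signal (deposited intensity) of ccb382 (left) and nad4 (right) in each group, 1 point per array, coloured by the replicate number. The 4 arrays of number 3 lie between 1118.2 and 1698.3 for ccb382 and between 362.2 and 474.1 for nad4, above all other arrays.

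On the log2 scale ccb382 was 1.44 higher in number 3 than in number 1 (SE 0.12, 95% interval 1.18 to 1.71, limma adjusted p = 5.21e-05), the 10th among all tested probe sets by that difference. It was 1.14 higher in number 3 than in number 2 (adjusted p = 0.000474). For nad4 the differences were 0.61 (SE 0.10, 95% interval 0.39 to 0.83, adjusted p = 0.00272) and 0.48 (adjusted p = 0.0322), of which the second was not called (adjusted p = 0.0547 to 0.157) without any single array numbered 3 or 2, other than rop10-1 mock 3. The comparison of numbers 3 and 1 called 7.32% of all tested probe sets as higher, and that of numbers 3 and 2 called 0.804%. Between numbers 2 and 1 no member was called by limma, and 17.9% of all tested probe sets were called. An unadjusted p under 0.05 was found in 2 of the 5 members and in 4983 of the 15923 tested probe sets. Over the 5 members the median difference was 0.26 for number 3 against 1 (-0.03 over all tested), 0.38 for 3 against 2 (0.00) and 0.06 for 2 against 1 (-0.04).

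The number accounted for 90.8% of the variance of ccb382 over the 12 arrays and 87.1% of that of nad4, where ABA accounted for 0.0758% and 3.34%. The other members ranged from 5.91% for ccb206 to 48.2% for ccb203, and the median of all tested probe sets was 25.1%, with 14.9% for ABA. These shares are a description on the log2 scale.

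Deviations from the group means over the 12 arrays correlated at r = 0.98 between ccb382 and nad4 and at 0.89 between ccb452 and nad6, and at -0.84 between cox2 and matR. The mean r of a member with the 11 others ran from 0.02 for matR and 0.04 for cox2, through 0.12 for nad4L, 0.18 for ccb206 and 0.20 for orfX, to 0.25 for ccb382, 0.26 for ccb203 and for nad7, 0.41 for nad6 and 0.42 for ccb452. The 12 arrays share the grouping by number, and matR, cox2 and ccb203 had signal near the bottom of the scale. In the RefSeq order nad4 lies between ccb452 and orfX, and neither neighbour was called between any pair of numbers. For ccb452 the log2 difference was 0.00 for number 3 against 1 (95% interval -0.32 to 0.31) and 0.38 for 3 against 2 (0.07 to 0.70, unadjusted p = 0.0214, limma adjusted p = 0.195). For number 2 against 1 it was -0.39 (-0.70 to -0.07, unadjusted p = 0.0209, limma adjusted p = 0.0892), and the mean signal of ccb452 was lowest in number 2. For orfX the difference was 0.26 (-0.21 to 0.72) for number 3 against 1 and 0.20 (-0.27 to 0.66) for 3 against 2. The differences between these genes and nad4 were not tested.

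Ribosomal and plastid signal was also highest in number 3 on average. Signal of the 25S ribosomal RNA control probe set was 118 to 178.3 in number 3, 42.1 to 122 in number 2 and 60 to 84.1 in number 1. The median signal of 69 probe sets for plastid genes was 3365 to 4014 in number 3, 2044 to 2963 in number 2 and 1740 to 2205 in number 1. Of 66 plastid probe sets that could be tested, 52 were called higher in number 3 than in number 1 and 0 were called lower. That is 78.8% called higher, beside 7.32% of all tested probe sets, with a median log2 difference of 0.83 over the 66. The log2 ratio of 3' to 5' control probe sets, a sign of RNA integrity and labelling, averaged -0.47, -0.52 and -0.36 for GAPDH, 2.39, 2.46 and 2.21 for actin and 0.90, 0.82 and 0.81 for ubiquitin in numbers 3, 2 and 1. For GAPDH and actin the mean of number 3 lay between those of the other numbers, and for ubiquitin it was the highest. In each of these controls the arrays of number 3 overlapped those of number 2 and those of number 1. Of the 2 tested shoot genes, LHCB4.2 was 0.60 higher in number 3 than in number 2 (limma adjusted p = 0.0211), and LHCB4.1 was 0.13 higher and not called. Neither was called for number 3 against 1, with log2 differences of 0.08 and 0.31. The part of these values in the differences of ccb382 and nad4 was not tested.

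Mitochondrial genes outside the rule gave a mixed picture. Of 11 further probe sets assigned to a single mitochondrial gene (7 of nad1, 2 of nad5, and nad2 and cox1), 4 could be tested. These were of the complex I gene nad1, except that of cox1, which encodes the catalytic subunit of cytochrome c oxidase. The number called cox1 and no nad1 probe set. At the tested nad1 probe sets the mean of number 3 was 1.08, 0.86 and 0.93 times that of number 1, with overlap. Signal of cox1 averaged 234 ± 22.0 in number 3, 155 ± 14.5 in number 2 and 162 ± 8.27 in number 1 (SD, n = 4 each), a log2 difference of 0.48 for number 3 against 1 (limma adjusted p = 0.0136). Of 12 probe sets listed with a further gene, 6 could be tested. The probe set of atp1, the alpha subunit of the ATP synthase, listed with AT2G07698, averaged 270 ± 11.3, 148 ± 14.1 and 163 ± 14.8 in numbers 3, 2 and 1, a log2 difference of 0.68 for 3 against 1 (adjusted p = 0.00204). That of atp9, the ring subunit, listed with AT2G07671, was 0.42 higher in number 3 than in number 1 (adjusted p = 0.0439). For number 3 against 1, 1 of the 4 and 2 of the 6 were called, all as higher, beside 7.32% of all tested probe sets called higher. The median log2 difference was 0.03 over the 4 (lowest -0.20) and 0.16 over the 6 (lowest -0.26), beside -0.03 over all tested. None of these 10 tested probe sets was called for ABA or genotype. Among those below the filter, the probe set of cob, listed with AT2G07727, was higher without overlap in number 3 than in number 1 (ratio of means 1.96). The shared probe set of nad5 was lower without overlap (0.67), and the others overlapped.

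**Figure D4:**
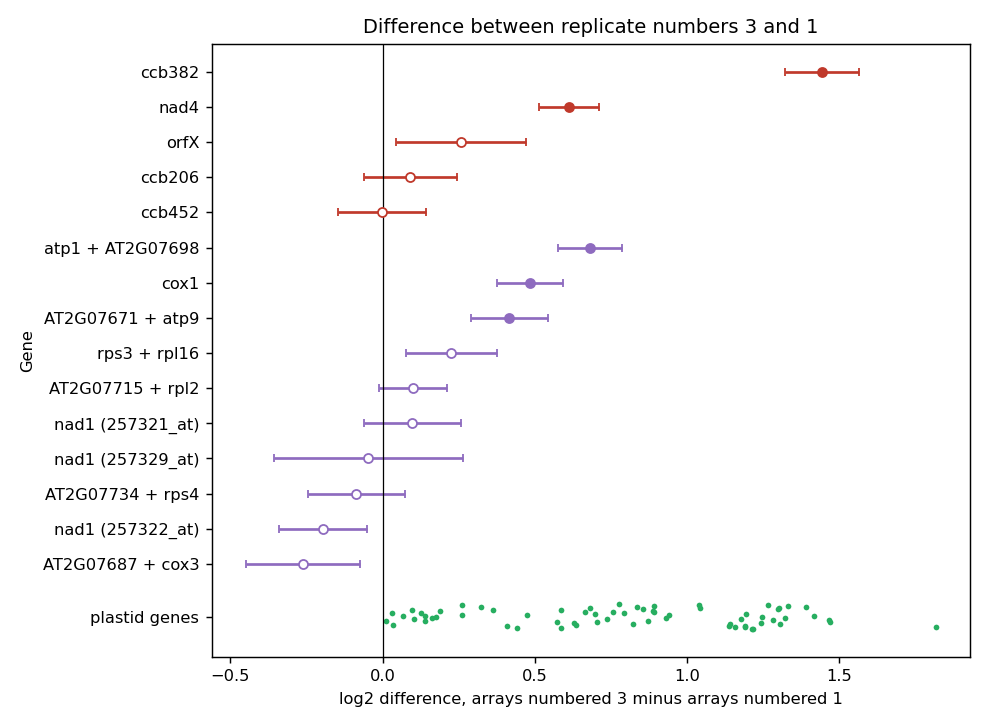
Log2 difference between the arrays numbered 3 and those numbered 1 (bars, SE of the fit) for the 5 tested mitochondrial probe sets (red), 10 other probe sets of mitochondrial genes (purple) and 66 plastid probe sets (green, no bars). Filled circles passed an adjusted p of 0.05 in the first 2 sets. ccb382 lies at 1.44, nad4 at 0.61 and atp1 (with AT2G07698) at 0.68.

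Nuclear genes for mitochondrial proteins were counted from 10 lists of 93 genes, of which 31 tested probe sets in 8 lists could be used. ABA called 2 of these 31 in rop10-1 (6.45%, beside 6.54% of all tested probe sets) and 1 in Ws (3.23%, beside 6.54%), all as higher, so that neither share was above that of all probe sets. NDB2, an alternative NAD(P)H dehydrogenase of the inner membrane, had signal of 1763.9, 2188.1 and 1467.5 with ABA in rop10-1 (numbers 3, 2 and 1), against 609, 1208.6 and 514.5 in mock. In Ws it had 943.2, 1658.2 and 1377.9 with ABA, against 435.3, 982.4 and 631.2 in mock. The groups did not overlap in rop10-1 and overlapped in Ws. The log2 difference was 1.28 in rop10-1 (limma adjusted p = 0.0459) and 0.98 in Ws (adjusted p = 0.126), which the replicate block brought to an adjusted p of 0.00419.

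SDH2-1 encodes an iron-sulfur subunit of complex II. Its signal in rop10-1 was 3705.7, 3666.8 and 3127.5 with ABA (numbers 3, 2 and 1), against 2662.6, 2754.3 and 2574.5 in mock. In Ws it was 3740.7, 3728.3 and 3430.3 with ABA, against 2683.7, 2656.5 and 2559.7 in mock, so the groups did not overlap in either genotype. It rose by 0.39 in rop10-1 (adjusted p = 0.0429) and by 0.46 in Ws (adjusted p = 0.0179) on the log2 scale. A further SDH2-1 probe set, below the filter, had signal from 3.6 to 11.8. None of the 3 probe sets of nuclear complex I subunits, of the 8 for complex III and cytochrome c, of the 7 for complex IV and of the 2 for ATP synthase was called for ABA in either genotype. The same held for the 2 for mitochondrial transcription, processing and decay and the 2 for splicing and editing. For the average of both genotypes 2 of 31 were called (6.45%, beside 15.5% of all tested probe sets). With the replicate block 7 were called (3 higher and 4 lower), which is 22.6% beside 28% of all tested probe sets. Among the 7 were AT5G14580, from the list for transcription, processing and decay, with a difference of -0.56 (adjusted p = 0.00546) and AT5G46920, from the list for splicing and editing, with -0.33 (adjusted p = 0.0251). For genotype the count was 0 of 31 by limma. For number 3 against 2, 0 of 31 were higher and 2 lower (6.45%, beside 1.06% of all tested probe sets called lower). For number 2 against 1, 8 were higher and 0 lower (25.8%, beside 9.19% called higher). For number 3 against 1, 5 were higher and 0 lower (16.1%, beside 7.32% called higher), among them both cytochrome c genes, CYTC-1 (0.26, adjusted p = 0.0484) and CYTC-2 (0.56, adjusted p = 0.00861).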

How the data were processed

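Biotin-labelled cRNA from seedling RNA was hybridised to 12 Affymetrix ATH1 arrays, per the labels. The authors deposited 1 intensity per probe set, on a linear scale, made with GCOS 1.1.1 per the submitters' processing notes. The GCOS settings were not given, and the trimmed means show that the arrays had been scaled. No probe-level values were used. Genes came from the probe table of the platform, whose names can be old (13513 probe sets with a single gene, 503 with several, 8730 with none listed), and RefSeq (TAIR10.1) gave names and gene order only.

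Samples were grouped by title, 3 per group. Values were used as deposited and tested as log2(value + 16), which understates the change of low genes, with limma 3.58.1 in R 4.3.3 (lmFit, eBayes with an intensity trend, two-sided). Controls were left out, as was the 30% of probe sets lowest in mean log2 value. A fit with 1 mean per group, which leaves out the pairing by number described below, gave the ABA, genotype and interaction comparisons. The block, an alternative, takes the pairing in. A fit with group and replicate number gave the number comparisons. The scripts were tested on simulated arrays with independent noise and known changes in some probe sets. The pairing by number was not simulated, so the fit that leaves it out was not checked under it.

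The replicate numbers pair the arrays: deviations from group means correlated at 0.22 to 0.71 in the 18 pairs of arrays with the same number and at -0.48 to 0.11 in the 36 pairs with different numbers. This comes from the data, since the labels do not say what a number marks. Alternatives were the block, pseudocounts of 1 and 64, no filter, quantile normalization, fits of only the groups compared, and fits without each array in turn.

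All members with an assigned role were named, and of the nuclear lists the called genes and up to 4 others. Members and lists were chosen with earlier results of these data known. The number of arrays limits the precision.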

Additional observations from a re-analysis of the deposited data

Results flagged for a closer look

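The response of ccb382 to ABA had opposite signs in the genotypes in every pair of arrays with the same number: higher with ABA in 3 of 3 pairs of rop10-1 and lower in 3 of 3 pairs of Ws. The smallest of these log2 differences lay near 0, at 0.07 in rop10-1 (number 2) and -0.02 in Ws (number 3). The interaction was 0.60 on the log2 scale (SE 0.74, limma adjusted p = 1.00, or 0.908 with the replicate block), so the difference between the genotypes did not pass its test. Such opposite signs in all 3 pairs occurred in 1 of 12 members and in 359 of the 15923 tested probe sets (2.25%).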

How the results depend on the processing

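The count of members called was 0 under each of the 17 or 18 alternatives of the 7 ABA, genotype and interaction comparisons, the replicate block included. For the number, ccb382 and nad4 were called in the main analysis, and 2 to 3 members when 1 array was left out; ccb452 became the added one without rop10-1 mock array 1 (adjusted p = 0.0426) or 2 (adjusted p = 0.0358). Without all 6 Ws arrays, an alternative chosen after seeing the data, the count was 1, ccb382. There nad4 in number 3 against 1 had an adjusted p of 0.0996 (log2 difference 0.59); fewer arrays were in that fit.

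The difference of ccb382 was called under all 19 alternatives, at 1.35 to 1.54 for number 3 against 1 and 1.03 to 1.24 for 3 against 2. That of nad4 kept its sign in all, at 0.54 to 0.68 and called in 18 of 19 for 3 against 1, but at 0.42 to 0.55 and called in 8 of 19 for 3 against 2. Its adjusted p there ran from 0.0263 to 0.352, with 0.0359 to 0.157 when 1 array was left out, 0.0560 without the filter and 0.103 when the number was fitted without group means. The cause was not tested. No called difference changed sign. The medians of the 5 tested members moved by less than the spread within groups (SD 0.25 on the log2 scale; 0.20 after group and number), but several lay near 0 and changed sign when 1 array was left out: ABA in Ws (-0.20 to 0.16), ABA on average (-0.19 to 0.05), ABA in rop10-1 (-0.20 to 0.00), rop10-1 against Ws under ABA (-0.19 to 0.05), in mock (-0.05 to 0.16) and on average (-0.07 to 0.09), and number 2 against 1 (-0.08 to 0.18). No direction is read from them.

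With 7 of 12 members below the filter, low signal limits what can be said of them.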
